A study of Danio rerio with 32 samples.

Results

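The response of *rad21-/-* zebrafish tailbuds to Wnt stimulation was measured in 8 of the 32 libraries of a bulk RNA-seq series, the 4 untreated and the 4 BIO-treated pools of homozygous mutants. Of the 32057 genes in the count table, the 21385 that passed a filter on low counts were compared. *rad21* (annotated as *rad21a*) encodes the kleisin subunit that closes the cohesin ring, a complex that holds sister chromatids together and forms chromatin loops. The other groups of the series were WIK wild type, *rad21+/-* and *stag2b-/-*, each untreated or treated, with 4 pools per group. The *rad21-/-* and *rad21+/-* embryos carried the nz171 point mutation on both or on 1 copy of the gene. BIO (6-bromoindirubin-3′-oxime) inhibits glycogen synthase kinase 3 (Gsk3) and was given at 2.5 µM until dissection at the stage of 16 somites. Its start is stated in the methods as 4 h post fertilization and elsewhere in the study as the shield stage. No vehicle is stated for the untreated embryos. Each pool held 80 tailbuds, and for the *rad21* line the head of every embryo was genotyped. The mutants represent 1 allele, and the wild type used for comparison is not stated to be siblings of the line.

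The tailbud is the growth zone at the posterior end of the embryo, where bipotent progenitors supply the presomitic mesoderm and the spinal cord. In the canonical Wnt pathway, Gsk3 within the destruction complex marks β-catenin for degradation. A Gsk3 inhibitor stabilizes β-catenin, which acts with TCF/LEF factors to turn on target genes, among them feedback inhibitors such as *axin2*. Wnt signalling in the tailbud maintains the progenitors and favours mesoderm. Indirubins, the compound class of BIO, are also known as ligands of the aryl hydrocarbon receptor (AhR), a transcription factor that switches on cytochrome P450 and conjugating enzymes.

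Library totals ran from 43026848 to 52319523 counted fragments in the untreated *rad21-/-* pools and from 42408731 to 79725283 in the treated pools, within a range of 32464614 to 115057368 over the series. Levels are CPM, counts scaled to the size of the library, listed for replicates 1 to 4 in that order. *rad21a* stood at 53.4, 53.4, 43.9 and 64.7 CPM in the untreated pools and 67.9, 49.9, 49.8 and 47.5 CPM in the treated pools, where untreated wild type had 784 ± 70.8 CPM (mean ± SD, n = 4). All 8 libraries were thus low in the mutated transcript, and the log2 fold change with treatment was 0.00 (standard error, SE, 0.10). Tailbud markers were present in untreated mutants: *tbxta* at 111, 118, 152 and 149 CPM, *tbx16* at 189.9, 173, 217 and 193 CPM and *hoxd13a* at 58.5, 59.5, 73.3 and 74.8 CPM. Untreated replicate 1 stood apart on the first principal component (30.9% of variance), at 33.3 against −16.9 to 7.6 in the other 7 pools. Replicate 4 of both groups stood apart on the second component (23.6%), at 17.4 and 24.1 against −11 to 3.9. No source states that the pools came from separate crosses or days, so p-values measure the spread between these pools, which may be technical.

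BIO changed 1532 of 21385 genes in *rad21-/-* tailbuds at a 5% false discovery rate (FDR), which is 7.16% (quasi-likelihood test of edgeR, with p-values adjusted by the Benjamini-Hochberg method here and below). Decreases were the more frequent, with 1083 genes lower (5.06%) and 449 higher (2.1%). Genes of xenobiotic metabolism showed the largest increases, and the epidermal list held the largest share of decreases among the lists described here. Of 32 known Wnt feedback genes, 1 rose and 1 fell. Most changes were small: the median absolute log2 fold change of the changed genes was 0.58 (quartiles 0.42 and 0.82), and 52 genes rose and 178 fell at least 2-fold. The 4 treated pools lay wholly above the 4 untreated pools for 392 of the 449 higher genes and wholly below for 964 of the 1083 lower genes, where 6.96% and 9.26% of all genes tested were separated upwards and downwards. The number of calls depended on single pools. It was 674 without untreated replicate 2, 839 without BIO replicate 1, 886 without BIO replicate 4, 956 without untreated replicate 1 and 959 without BIO replicate 2, and between 1224 and 1666 without each of the other 3. Of 130 calls followed gene by gene, 51, 73, 18 and 28 were lost without untreated replicates 1 to 4 in turn, and 57, 55, 18 and 46 without BIO replicates 1 to 4. The column header of untreated replicate 2 carries a number that is not its replicate number, unlike the other untreated *rad21-/-* pools. Its group was taken from the sample title.

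**Figure D1:**
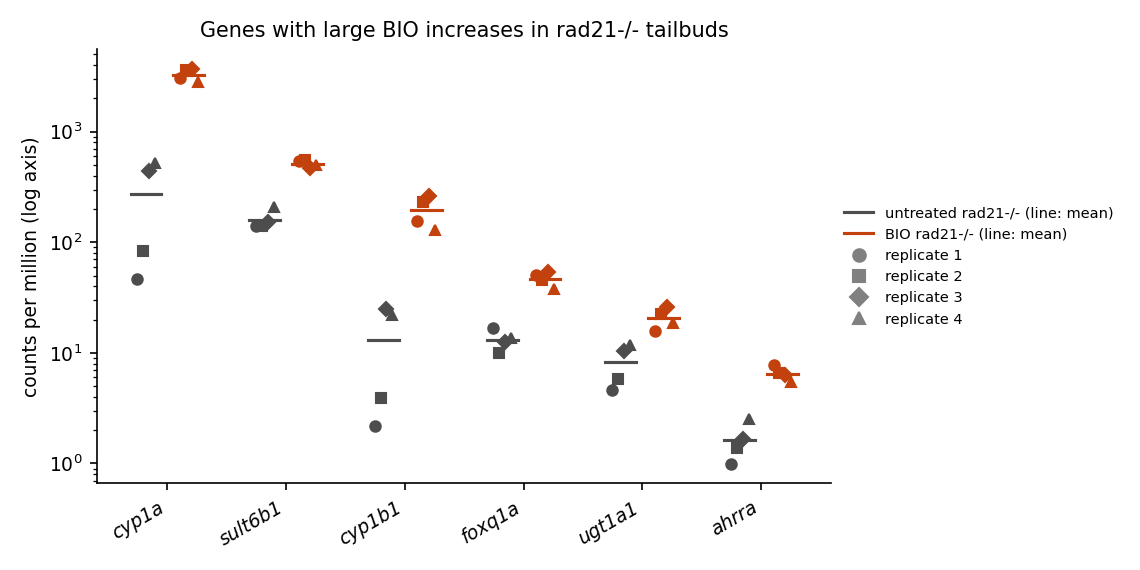
CPM (log axis) of 6 genes in the 4 untreated and 4 BIO-treated *rad21-/-* pools, with a marker shape per replicate and a line at each mean. For every gene shown, all 4 treated pools lie above all 4 untreated pools; untreated *cyp1a* spans 46.4 to 521 CPM.

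The cytochrome P450 genes of the AhR battery rose most. *cyp1a* (ENSDARG00000098315; GRCz11 chromosome 18, 5588068 to 5598958), the classical AhR-induced monooxygenase, was counted at 46.4, 82.8, 445 and 521 CPM untreated and 3086, 3592, 3694 and 2790.3 CPM with BIO. Its groups did not overlap, but untreated replicates 1 and 2 were several-fold below replicates 3 and 4, so the baseline itself varied. The log2 fold change was 3.59 (SE 0.68, adjusted p = 0.0019). *cyp1b1* (ENSDARG00000068934; chromosome 13, 42011285 to 42018948), a related P450 enzyme, stood at 2.19, 3.91, 24.8 and 21.8 CPM untreated and 157, 231, 261 and 128 CPM with BIO. It had the same low untreated replicates 1 and 2 and no overlap, with a log2 fold change of 3.89 (SE 0.62, adjusted p = 0.00052). *ahrra*, which encodes a repressor that feeds back on the receptor, went from 0.998, 1.38, 1.66 and 2.52 CPM to 7.72, 6.51, 6.25 and 5.46 CPM, a log2 fold change of 1.99 (SE 0.38, adjusted p = 0.0015). All treated pools lay above all untreated pools for this repressor. The receptor gene *ahr2* (log2 fold change 0.13, adjusted p = 0.74) and the target *tiparp* (0.34, adjusted p = 0.0518) did not pass the test.

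*foxq1a*, a forkhead transcription factor gene, had 16.7, 9.95, 12.6 and 13.5 CPM untreated and 50.6, 45.5, 53.9 and 37.5 CPM with BIO, without overlap and with a log2 fold change of 1.83 (SE 0.23, adjusted p = 4.1e-05). Its paralogue *foxq1b* was lower (−1.88, adjusted p = 0.026), a call lost in 5 of 8 fits with 1 pool left out (untreated replicates 1 and 2, BIO replicates 1, 2 and 4; highest adjusted p 0.10). *ptgs2a*, a prostaglandin synthase gene, also fell (log2 fold change −0.63, adjusted p = 0.0085). Of the 17 AhR battery genes tested, 4 rose and 2 fell, where 2.1% and 5.06% of all genes did. The median log2 fold change of the 17 was −0.09 against 0.01 over all genes. The summed level of the list went from 619 to 1110 CPM in untreated pools to 3441 to 4532 CPM in treated pools, of which *cyp1a* made up most with BIO.

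*sult6b1* and *ugt1a1*, which encode conjugating enzymes, were also among the 10 largest increases. *sult6b1* (ENSDARG00000086826), a sulfotransferase gene, was at 139, 141, 154 and 207 CPM untreated and 538, 550.0, 471 and 499 CPM with BIO. The treated pools were close to each other and far above the untreated ones, and this was the smallest p among the named increases (log2 fold change 1.68, SE 0.20, adjusted p = 1.3e-05). *ugt1a1* (ENSDARG00000006220), a UDP-glucuronosyltransferase gene, was at 4.66, 5.85, 10.5 and 11.8 CPM untreated and 15.8, 22.5, 25.9 and 18.8 CPM with BIO, with untreated replicates 1 and 2 again lowest and no overlap. Its log2 fold change was 1.34 (SE 0.29, adjusted p = 0.0048); fragments shared with near-identical family members were not counted, so its level is uncertain. *tktb*, which encodes the pentose phosphate enzyme transketolase, was among the 3 increases with the smallest p and rose from 138, 154, 167 and 161 CPM to 216, 227, 222 and 201 CPM (log2 fold change 0.48, SE 0.07, adjusted p = 0.00017). None of the increases of *cyp1a*, *cyp1b1*, *ahrra*, *foxq1a*, *sult6b1*, *ugt1a1* and *tktb* was lost when any 1 pool was left out.

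Nrf2, encoded in zebrafish by *nfe2l2a* and *nfe2l2b*, is the transcription factor of the oxidative stress response. *nfe2l2a* was at 8.78, 10.8, 10.5 and 10.8 CPM untreated and 19.8, 22, 20.8 and 15.9 CPM with BIO, without overlap, and its log2 fold change was 0.94 (SE 0.18, adjusted p = 0.0011). *nfe2l2b* rose by 1.02 (adjusted p = 0.0066) and the peroxiredoxin gene *prdx1* by 0.85 (adjusted p = 0.00034). The glutathione reductase gene *gsr* rose by 0.39 (adjusted p = 0.029), a call lost in 4 of 8 single-pool omissions (untreated replicate 1, untreated replicate 2, BIO replicate 2, BIO replicate 4; highest adjusted p 0.15). Over all genes 2.1% rose and 5.06% fell. Among the 18 members of this list, whose median was 0.15, the 4 named here were the only ones to pass the test. The Nrf2 targets *nqo1* (−0.51, adjusted p = 0.11) and *hmox1a* (0.26, adjusted p = 0.54) did not pass it.

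The remaining 4 of the 10 largest increases were genes named only by a clone or identifier. *si:ch73-39o22.3* was at 5.7, 3.19, 5.29 and 3.25 CPM untreated and 10.3, 9.68, 10.7 and 10.3 CPM with BIO (log2 fold change 1.23, SE 0.29, adjusted p = 0.0087), a call lost without untreated replicate 2 (adjusted p = 0.0526). *zgc:163022* was at 0.672, 0.844, 1.64 and 1.39 CPM untreated and 1.77, 3.01, 2.39 and 2.9 CPM with BIO (log2 fold change 1.15, SE 0.29, adjusted p = 0.012), lost without untreated replicate 1 or 2 (highest adjusted p 0.068). *si:ch211-249o11.5* was at 0.13, 0.532, 0.767 and 0.91 CPM untreated and 1.49, 1.3, 1.55 and 1.15 CPM with BIO (log2 fold change 1.23, SE 0.36, adjusted p = 0.032). *si:dkey-23k10.3* stayed under 0.5 CPM in every mutant pool, with 0, 0.147, 0.187 and 0.091 CPM untreated and 0.261, 0.305, 0.234 and 0.415 CPM with BIO, against 21.3 ± 5.84 CPM in untreated wild type. It passed the filter through other groups, and its log2 fold change of 1.44 (adjusted p = 0.029) rests on few counts. These last 2 calls were each lost in 5 of 8 single-pool omissions. For *si:ch211-249o11.5* these were untreated replicate 1, untreated replicate 2, BIO replicate 1, BIO replicate 2, BIO replicate 3 (highest adjusted p 0.11), and for *si:dkey-23k10.3* untreated replicate 1, untreated replicate 2, untreated replicate 4, BIO replicate 2, BIO replicate 4 (highest adjusted p 0.10).

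**Figure D2:**
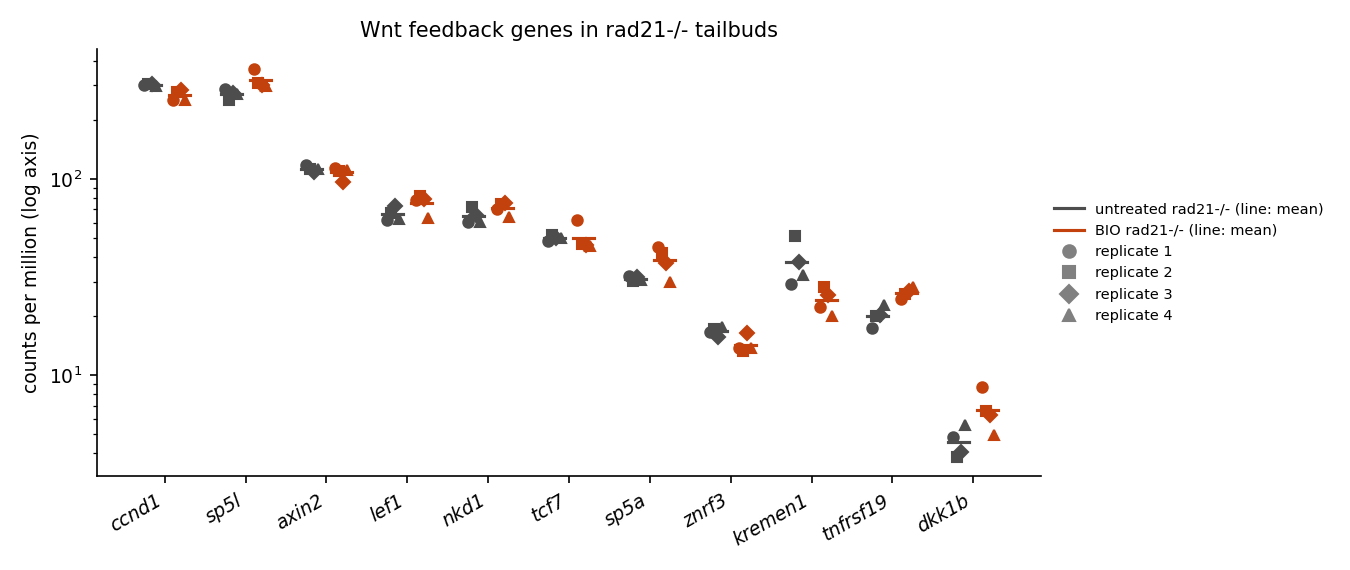
CPM (log axis) of 11 Wnt feedback genes in the 4 untreated and 4 BIO-treated *rad21-/-* pools, with a marker shape per replicate and a line at each mean. The groups overlap for *axin2* and are separated for *sp5l*, *tnfrsf19* and *kremen1*, of which the last 2 passed the test.

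The feedback targets read the pathway that BIO acts on. In *rad21-/-* tailbuds 1 of 32 rose and 1 fell, where 2.1% of all genes rose and 5.06% fell. The median log2 fold change of the 32 was 0.08, against 0.01 over all genes. *axin2*, which encodes the scaffold of the destruction complex and is a general Wnt target, was at 118, 113, 108 and 112 CPM untreated and 114, 110.3, 97.1 and 111 CPM with BIO. Its groups overlapped almost completely, and the log2 fold change of −0.06 (SE 0.08, adjusted p = 0.71) was within the spread of the pools. *sp5l*, a direct Wnt target and transcription factor gene of the tailbud, was at 288, 252, 274 and 271 CPM untreated and 365, 308, 301 and 298 CPM with BIO. Treated pools were all higher, but the change of 0.23 (SE 0.08) had an adjusted p of 0.090. The TCF/LEF gene *lef1* had a log2 fold change of 0.19 (SE 0.09, adjusted p = 0.23), *sp5a* of 0.31 (adjusted p = 0.12), the inhibitor gene *nkd1* of 0.14 (adjusted p = 0.51), and *tcf7* of 0.00. *ccnd1* (−0.18, adjusted p = 0.26) and *znrf3*, which encodes a ligase that removes Frizzled receptors (−0.23, adjusted p = 0.18), lay below 0 without passing the test.

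*tnfrsf19*, a receptor gene of the TNF family, was the feedback gene that rose, from 17.4, 20.1, 20.2 and 22.9 CPM to 24.6, 25.9, 27 and 28.1 CPM (log2 fold change 0.39, SE 0.08, adjusted p = 0.0029). *kremen1*, which encodes a receptor for Dickkopf inhibitors, was at 29.3, 51.1, 38 and 32.5 CPM untreated and 22.2, 28.3, 25.8 and 20.2 CPM with BIO, a change of −0.64 (SE 0.15, adjusted p = 0.0081). Its highest untreated pool was replicate 2, without which the call was lost (adjusted p = 0.083). *dkk1b*, a secreted inhibitor of the Wnt co-receptor, was at 4.84, 3.84, 4.06 and 5.59 CPM untreated and 8.71, 6.6, 6.27 and 4.97 CPM with BIO, overlapping through BIO replicate 4 (log2 fold change 0.54, adjusted p = 0.16). By unadjusted p under 0.05, 5 feedback genes were higher and 3 lower, and DESeq2 called 2 and 1. For orientation, wild type given the same treatment had 6 of the 32 higher and 3 lower, where 7.58% and 9.76% of all genes were, and *rad21+/-* had 0 and 1, where 1.31% and 2.31% were. The differences between these counts were not tested. The median of the 32 was 0.03 in wild type and 0.03 in *rad21+/-*. Gene by gene, the interaction with wild type described below passed 5% FDR for 1 of the 32, *dkk1b*, where 0.874% of all genes did. That with *rad21+/-* passed for 0.

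Some members of the upstream parts of the pathway changed, where 2.1% of all genes rose and 5.06% fell. In the list of 42 ligands, receptors and secreted inhibitors, which did not hold the inhibitor gene *frzb*, none rose and 3 fell. Its median was 0.00 (unadjusted p under 0.05 for 2 higher and 10 lower, DESeq2 1 and 6). *wnt3a*, a canonical ligand of the tailbud and dorsal neural tube, was at 5.16, 5.32, 4.44 and 3.78 CPM untreated and 2.7, 2.72, 3.3 and 2.63 CPM with BIO, without overlap (log2 fold change −0.72, SE 0.18, adjusted p = 0.012). That call was lost without untreated replicate 2 (adjusted p = 0.058). The inhibitor gene *sfrp2* (−0.75, adjusted p = 0.036) and the receptor gene *fzd1* (−0.65, adjusted p = 0.0486) fell, calls lost in 6 and 7 of 8 single-pool omissions (highest adjusted p 0.12 and 0.19). The ligand gene *wnt5b* had a log2 fold change of 0.08. The list of 33 destruction complex and TCF genes also held *frzb*, which encodes a secreted inhibitor and belongs to neither group. In it 2 rose (*frzb* by 0.70, *gsk3ab* by 0.27) and 2 fell (*apc* by 0.38, *ctnnb2* by 0.28). Each of these calls was lost in 3 to 6 of the 8 omissions. With the exon length trend described below taken out, *apc* was at −0.08 (adjusted p = 0.606) and no longer called. *ctnnb1*, encoding β-catenin itself, had −0.04 and *gsk3ba* 0.12. Of 96 genes that the study listed to score Wnt activity, 4 rose and 6 fell, with a median of 0.02. The study took that list from a public pathway collection.

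**Figure D3:**
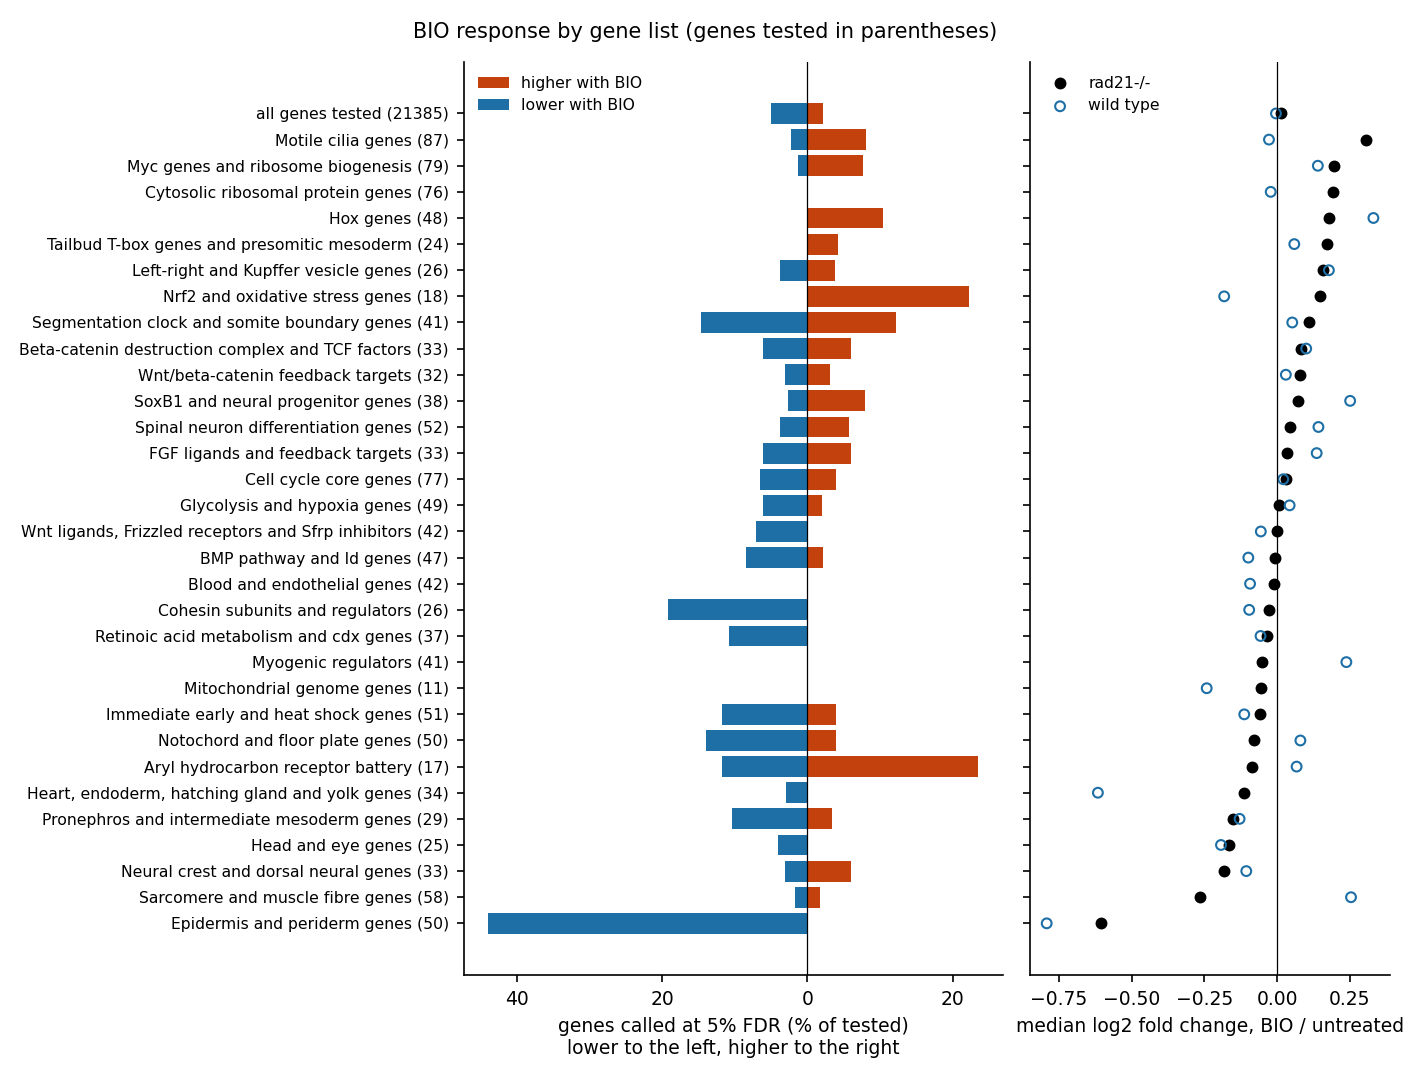
Left, the share of each gene list shown that was called higher or lower in *rad21-/-* tailbuds at 5% FDR, with lists ordered by median and all genes tested at the top (2.1% higher, 5.06% lower). Right, the median log2 fold change of each list in *rad21-/-* (filled) and wild type (open); the epidermal list has the lowest median in both, −0.60 and −0.79.

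The progenitor and presomitic genes of the tailbud lay slightly above their untreated level. The counts called stand beside 2.1% of all genes higher and 5.06% lower. Of 24 tailbud T-box and presomitic genes 1 rose, 19 had a log2 fold change above 0, and the median was 0.17. That gene, *tbx6*, a T-box gene of the presomitic mesoderm, rose by 0.37 (adjusted p = 0.044), a call lost in 6 of 8 single-pool omissions (highest adjusted p 0.16). *tbxta*, the zebrafish Brachyury gene, was at 0.20 on the log2 scale (adjusted p = 0.29), *tbx16* at 0.27 (adjusted p = 0.096) and *msgn1*, a presomitic mesoderm regulator, at 0.33 (adjusted p = 0.16). The posterior gene *eve1* was at −0.02. *sox2*, which marks the neural side of the progenitor choice, was at 75.2, 54.1, 70.6 and 53.2 CPM untreated and 90.5, 73.7, 73.9 and 77.8 CPM with BIO (log2 fold change 0.32, SE 0.10, adjusted p = 0.0498), and its call was lost in 6 of 8 omissions (highest adjusted p 0.22). In the list of 38 SoxB1 and neural progenitor genes 3 rose and 1 fell (median 0.07), and in that of 33 FGF genes 2 rose and 2 fell (median 0.03), with the tailbud ligand gene *fgf8a* at 0.21 (adjusted p = 0.29) and *fgf3* higher by 0.31 (adjusted p = 0.044, lost in 5 of 8 omissions).

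Hox genes, which set position along the body axis, lay mostly above their untreated level. Of 48 tested, 5 rose and none fell, where 2.1% of all genes rose and 5.06% fell. An unadjusted p under 0.05 was reached by 16 higher and 0 lower, and DESeq2 called 8 and 0. A total of 41 lay above 0, and the median was 0.18. *hoxc6b* was at 38.7, 39.2, 49.5 and 48.1 CPM untreated and 68, 71.7, 68.5 and 73.9 CPM with BIO, all treated pools above all untreated ones (log2 fold change 0.68, SE 0.16, adjusted p = 0.0076). *hoxb2a* rose by 0.59 (adjusted p = 0.0081) and *hoxb3a* by 0.43 (adjusted p = 0.0030), as did *hoxb1b* (0.39, adjusted p = 0.034, lost in 6 of 8 omissions). The count ran from 3 to 7 with 1 pool left out, and 3 was reached without untreated replicate 2 or 4 or BIO replicate 1, 2 or 4. In wild type 19 of these 48 genes rose, where 7.58% of all genes did. Of the members of the retinoic acid and cdx list, 37 were tested, of which none rose and 4 fell (unadjusted p under 0.05 for 1 higher and 6 lower, DESeq2 0 and 4). *meis2a*, encoding a partner of Hox proteins, was at 13.3, 13.7, 12.9 and 9.76 CPM untreated and 7.61, 7.89, 10.5 and 6.36 CPM with BIO (log2 fold change −0.62, SE 0.13, adjusted p = 0.0027), overlapping only through BIO replicate 3. *dhrs3a*, which encodes a retinaldehyde reductase, was at 16.2, 8.42, 6.62 and 5.16 CPM untreated and 3.46, 3.48, 4.91 and 2.83 CPM with BIO (log2 fold change −1.31, SE 0.32, adjusted p = 0.011), a call lost without untreated replicate 1 (adjusted p = 0.093). *cdx4*, a Wnt-responsive activator of posterior Hox genes, was at 0.15 on the log2 scale and the retinoic acid hydroxylase gene *cyp26a1* at 0.01.

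The segmentation list held members that rose and members that fell. The 5 genes that rose were *her1*, *her7*, *dlc*, *lfng* and *tbx6*, of the clock and the presomitic mesoderm, and the 6 that fell were 4 Notch receptor genes, the fibronectin gene *fn1b* and the ligand gene *jag2b*. *her1* and *her7*, the core oscillators of the segmentation clock, changed by 0.39 (adjusted p = 0.0090) and 0.40 (adjusted p = 0.018), and the Notch ligand gene *dlc* by 0.41 (adjusted p = 0.020). *her1* was at 108, 93.7, 107 and 108 CPM untreated and 147, 139, 124 and 137 CPM with BIO. These 3 calls were lost in 1, 2 and 3 of 8 single-pool omissions, untreated replicate 2 among them for each (highest adjusted p 0.057, 0.11 and 0.067). *dld* (0.07) and *hes6* (0.30, adjusted p = 0.094) did not pass the test. *notch3* was at 275, 399, 301 and 297 CPM untreated and 171, 198, 228 and 189 CPM with BIO, with untreated replicate 2 highest and no overlap (log2 fold change −0.69, SE 0.13, adjusted p = 0.0013). *notch1a* fell by 0.54 (adjusted p = 0.0035), *notch1b* by 0.87 (adjusted p = 0.0074) and *notch2* by 0.72 (adjusted p = 0.0062), and the calls of *notch1b* and *notch2* were lost without untreated replicate 2 (adjusted p = 0.0544 and 0.0547). In all, 5 of 41 rose and 6 fell (median 0.11), where 2.1% and 5.06% of all genes did. Without untreated replicate 2 the counts were 0 and 2. The *notch* genes are long, and with the exon length trend described below taken out their changes were −0.24 (*notch3*), −0.28 (*notch1a*), −0.65 (*notch1b*) and −0.35 (*notch2*), each still called.

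Some genes known to respond to DNA damage and other stress rose. *mdm2*, encoding a ubiquitin ligase, was at 90.1, 96.6, 111 and 105 CPM untreated and 173, 171, 162 and 141 CPM with BIO, without overlap (log2 fold change 0.69, SE 0.11, adjusted p = 0.00029). *phlda3* (0.80, adjusted p = 0.0058) and *gadd45aa* (0.86, adjusted p = 0.0049) rose as well, with no overlap of pools in either. These 3 calls were not lost when any 1 pool was left out. The cyclin gene *ccng1* rose by 0.44 (adjusted p = 0.024, lost in 4 of 8 omissions, highest adjusted p 0.086). The cell cycle inhibitor gene *cdkn1a* was at 0.47 (adjusted p = 0.059). The kinase gene *plk2b* fell (−0.61, lost without untreated replicate 2, adjusted p = 0.0534).

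Some growth and proliferation genes passed the test, where 2.1% of all genes rose and 5.06% fell. Of 79 Myc and ribosome biogenesis genes 6 rose, 1 fell and 74 lay above 0 (median 0.19). *npm1a*, the nucleolar chaperone nucleophosmin, was at 755, 687, 739.6 and 777 CPM untreated and 1061, 1106, 1009 and 1091 CPM with BIO (log2 fold change 0.53, SE 0.10, adjusted p = 0.0017). *nop56* rose by 0.45 (adjusted p = 0.012), a call lost without untreated replicate 2 or BIO replicate 1 (highest adjusted p 0.064), and the long gene *utp20* fell by 0.48, a call lost with the exon length trend taken out (−0.23, adjusted p = 0.133). Without untreated replicate 2 or BIO replicate 1 the list held 1 increase. All 76 cytosolic ribosomal protein genes lay above 0, between 0.03 and 0.44 with a median of 0.19, and none passed the test (unadjusted p under 0.05 for 12 higher and 0 lower, DESeq2 0). Their summed level overlapped, at 102080 to 131570 CPM in untreated and 112810 to 157480 CPM in treated pools. The median ran from 0.08 to 0.28 with 1 pool left out and was −0.02 in wild type. These genes are short (median 1187.5 bases of exons), and all genes of 1 to 2 kb described below had a median of 0.07. Of 77 core cell cycle genes 3 rose and 5 fell (median 0.03), with *cdk1* at 0.01, *ccnb1* at 0.20 and *plk1* at −0.01. The replication genes *pcna* (0.27, adjusted p = 0.030), *mcm2* (0.25, adjusted p = 0.028) and *mcm3* (0.30, adjusted p = 0.0049) were the 3 that rose. The calls of *pcna* and *mcm2* were lost in 6 and 4 of the 8 omissions. Genes that fell included the DNA polymerase gene *pole*, between −0.56 and −0.38 with 1 pool left out and called each time. It was still called with the exon length trend taken out (−0.32, adjusted p = 0.037). *rrm2* also fell, a call lost in 5 omissions. The decreases of *cenpe*, *cenpf* and *top2a* were not called with the trend taken out. With a term for replicate number added to that fit, *top2a* was called.

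The epidermis and periderm list had 22 of 50 members lower and none higher (unadjusted p under 0.05 for 34 lower and 0 higher, DESeq2 24 and 0), against 5.06% lower over all genes. Its median was −0.60 and 47 members lay below 0. *ppl*, which encodes the cornified envelope protein periplakin, was at 1859, 1769, 972 and 1249.7 CPM untreated and 678, 611, 669.8 and 521 CPM with BIO. Treated pools were all below untreated ones, with the untreated pools themselves spread over 972 to 1859 CPM (log2 fold change −1.24, SE 0.21, adjusted p = 0.00057). *krt18b*, a simple epithelial keratin gene, was at 36.2, 46.2, 32.9 and 38.9 CPM untreated and 14.5, 15.9, 15.3 and 20.9 CPM with BIO, without overlap (log2 fold change −1.21, SE 0.27, adjusted p = 0.0060). The keratin genes *krt1-19d* (−2.42, adjusted p = 0.019) and *krt94* (−1.55, adjusted p = 0.033) fell further, calls lost in 4 and 5 of 8 single-pool omissions. Keratins are a family of similar copies, and fragments that mapped to several places were not counted, so single keratin values are uncertain. *krt4*, the periderm keratin gene, fell by 0.61 (adjusted p = 0.018) and the E-cadherin gene *cdh1* by 0.43 (adjusted p = 0.015), calls lost in 4 and 3 omissions. *krt5* (−0.63, adjusted p = 0.062) and *tp63*, the regulator of basal epidermis (−0.19, adjusted p = 0.19), did not pass the test.

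The summed level of the 50 epidermal genes was 53139 to 76261 CPM in untreated and 36240 to 51345 CPM in treated pools, and in untreated wild type it was 42698 to 97568 CPM. In bulk tailbuds, fewer skin cells in the dissected tissue and less RNA of these genes per cell cannot be told apart. The count of lower genes ran from 5 without BIO replicate 4, the pool with the lowest summed level, to 25. Counts of the lists that follow stand beside 2.1% of all genes higher and 5.06% lower. Of the other tissues that a dissection could take along, the head and eye list (25 genes) had none higher and 1 lower (*egr2a*, −1.66), with a summed level of 78.6 to 96.5 CPM in untreated and 62.6 to 77.2 CPM in treated pools. Its forebrain and eye markers stood at 0.217, 0.312, 0.353 and 0.182 CPM (*foxg1a*) and 0.239, 0.147, 0.373 and 0.0455 CPM (*six3b*) in the untreated pools. In the heart, endoderm, hatching gland and yolk list 1 of 34 fell (*prox1a*, −0.52, lost in 6 of 8 omissions). That list does not hold the hatching enzyme gene *he1.3*, which is described below among the largest decreases. In the blood and endothelial list 0 of 42 changed (unadjusted p under 0.05 for 3 higher and 3 lower, DESeq2 1 higher). Among 58 sarcomere genes *actc1a* rose and *myom2a* fell (median −0.27), but the call of *actc1a* was lost in each of the 8 omissions and that of *myom2a* in 5, and neither was called with the exon length trend taken out (adjusted p = 0.060 and 0.141). Of 41 myogenic regulators none passed the test (unadjusted p under 0.05 for 1 higher and 1 lower, DESeq2 0), with *myod1* at 0.12 and *myf5* at 0.30.

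Of 51 immediate early and heat shock genes 2 rose and 6 fell (median −0.06). *cebpd*, encoding C/EBPδ, was at 15.7, 11.6, 9.21 and 11.8 CPM untreated and 4.6, 4.74, 6.72 and 4.08 CPM with BIO, without overlap (log2 fold change −1.26, SE 0.18, adjusted p = 0.00010). *klf4*, a Krüppel-like factor gene expressed in epithelia, was at 9.31, 10.8, 5.64 and 7.37 CPM untreated and 4.13, 3.97, 4.74 and 2.49 CPM with BIO (log2 fold change −1.10, SE 0.21, adjusted p = 0.0015). The immediate early genes *egr1* (−0.94, adjusted p = 0.65), *fosab* (0.45, adjusted p = 0.75) and *junba* (−0.59, adjusted p = 0.52) did not pass the test. In the same list the mitochondrial chaperone gene *hspd1* rose from 263, 247, 221 and 278 CPM to 341, 308, 299.7 and 309.7 CPM (log2 fold change 0.32, SE 0.08, adjusted p = 0.010), a call lost without BIO replicate 1 (adjusted p = 0.056). The counts of other lists stand beside 2.1% of all genes higher and 5.06% lower. Changes were called for 5 of 47 BMP genes (1 higher, 4 lower, *bmp4* by −0.46) and 4 of 49 glycolysis and hypoxia genes (1 higher, 3 lower). They were also called for 4 of 29 pronephric genes (1 higher, 3 lower) and 3 of 33 neural crest genes (2 higher, 1 lower). None of 11 mitochondrial genes changed (0 at unadjusted p under 0.05 and 0 by DESeq2).

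Motile cilia genes had the highest median of the lists, 0.31, with 70 of 87 members above 0. Of the 87, 7 were higher and 2 lower, where 2.1% and 5.06% of all genes were. *foxj1a*, the master regulator of motile cilia, was at 10.5, 10.6, 14.6 and 9.1 CPM untreated and 15.9, 16.3, 15.5 and 17.1 CPM with BIO (log2 fold change 0.54, SE 0.15, adjusted p = 0.024), without overlap. Genes of the axoneme and its assembly that rose were *lrrc23* (1.03, adjusted p = 0.012), *saxo2* (0.76, adjusted p = 0.012), *daw1* (0.65, adjusted p = 0.012) and *cfap53* (0.65, adjusted p = 0.025). All 5 calls were lost in 2 to 6 of 8 single-pool omissions, and the list held 1 increase without untreated replicate 2 or BIO replicate 1 and up to 10 without another pool. In the left-right and Kupffer vesicle list (26 genes), *foxj1a* was the 1 increase and *shroom3* the 1 decrease.

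Spinal neuron genes included clear single changes. *mnx1*, a motor neuron homeobox gene, was at 11.7, 11.9, 15.3 and 15.4 CPM untreated and 21.6, 22, 19.5 and 22.8 CPM with BIO, without overlap and with no call lost in any omission (log2 fold change 0.66, SE 0.11, adjusted p = 0.00057). The proneural gene *ascl1a* was low in all mutant pools, at 0.672, 0.496, 0.705 and 0.66 CPM untreated and 0.875, 1.05, 1.16 and 1.41 CPM with BIO, and rose by 0.82 (adjusted p = 0.012), a call lost without untreated replicate 2 or BIO replicate 4 (highest adjusted p 0.074). Of the 52 genes of the list 3 rose and 2 fell, where 2.1% and 5.06% of all genes did. The pan-neuronal *elavl3* (−0.11) and *neurog1* (0.14) did not pass the test.

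The 10 largest decreases included 7 genes on chromosome 1, of which 6 have an identifier but no name in the sources used here. ENSDARG00000117636 (GRCz11 chromosome 1, 59454067 to 59492590) was at 3.56, 15.6, 3.98 and 4.96 CPM untreated and 0.298, 0.623, 0.344 and 0.507 CPM with BIO, without overlap and with untreated replicate 2 far above the others (log2 fold change −3.97, SE 0.69, adjusted p = 0.00091). ENSDARG00000117216 (chromosome 1, 52353162 to 52363107) was at 7.16, 40.9, 12 and 9.78 CPM untreated and 0.968, 2.38, 1.39 and 1.5 CPM with BIO, with the same high pool (log2 fold change −3.47, SE 0.66, adjusted p = 0.0019). ENSDARG00000117707 (chromosome 1, 40716379 to 40723634) fell by 4.27, the largest decrease, but its adjusted p of 0.0079 became 0.057 without untreated replicate 2. The other 4 were ENSDARG00000117450 (−2.20), ENSDARG00000117485 (−2.13), ENSDARG00000117555 (−1.91) and *si:dkey-56e3.2* (−3.03), all called in every single-pool omission. ENSDARG00000117450, ENSDARG00000117485 and ENSDARG00000117707 are neighbours on the plus strand between 40683491 and 40723634.

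ENSDARG00000117555 and ENSDARG00000117636 end a run of 8 consecutive tested genes on chromosome 1, from 59353230 to 59492590. All 8 were lower without overlap of pools, where 5.06% of all genes were called lower and 9.26% were separated downwards. The run was noticed after the values were seen. The 8 log2 fold changes ran from −3.97 to −0.95, and untreated replicate 2 was the highest untreated pool for all 8. Genes on either side, *cyp3a65* (−0.41, adjusted p = 0.62) and *si:ch211-188p14.9* (−0.31, adjusted p = 0.75), did not pass the test. In wild type 7 of the 8 also fell with BIO, where 9.76% of all genes did, and in *rad21+/-* 2 did, where 2.31% of all genes did. Whether members of the run share sequence, which would drop fragments from the counts, was not tested.

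Outside chromosome 1, *he1.3* (chromosome 22, 14102397 to 14103633), a hatching enzyme gene of the hatching gland, was at 47.4, 56.1, 42.7 and 27.7 CPM untreated and 2.83, 3.86, 6.31 and 7.14 CPM with BIO (log2 fold change −3.12, SE 0.54, adjusted p = 0.00090), without overlap. It belongs to a family of similar copies, so its level is uncertain, and *he1.1* had a log2 fold change of −0.57 with a standard error of 1.43. *gad3*, a glutamate decarboxylase gene, was at 8.33, 6.66, 6.84 and 5.3 CPM untreated and 1.86, 1.82, 1.94 and 1.31 CPM with BIO, with little spread in either group (log2 fold change −1.96, SE 0.27, adjusted p = 5.5e-05). *nppal*, a natriuretic peptide gene, was at 14.1, 7.86, 3.73 and 6.8 CPM untreated and 1.25, 1.27, 2.86 and 1.04 CPM with BIO (log2 fold change −2.33, SE 0.41, adjusted p = 0.00080). The smallest p among the decreases belonged to *fryb*, *itm2bb* and *mcm3ap*. *itm2bb*, which encodes a membrane protein, was at 57.1, 48.9, 51.3 and 50.5 CPM untreated and 26.3, 27.6, 29.5 and 28.1 CPM with BIO (log2 fold change −0.90, SE 0.11, adjusted p = 1.3e-05). *fryb*, related to the Drosophila cell shape gene furry, was at 81.3, 102, 77.7 and 84.3 CPM untreated and 42, 48, 48.8 and 42.6 CPM with BIO (log2 fold change −0.93, SE 0.11, adjusted p = 1.3e-05), and *mcm3ap* fell by 0.66 (adjusted p = 4.2e-05). The exons of *fryb* add up to 12160 bases and those of *mcm3ap* to 9371, and with the length trend taken out their changes were −0.46 and −0.34, both still called.

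**Figure D4:**
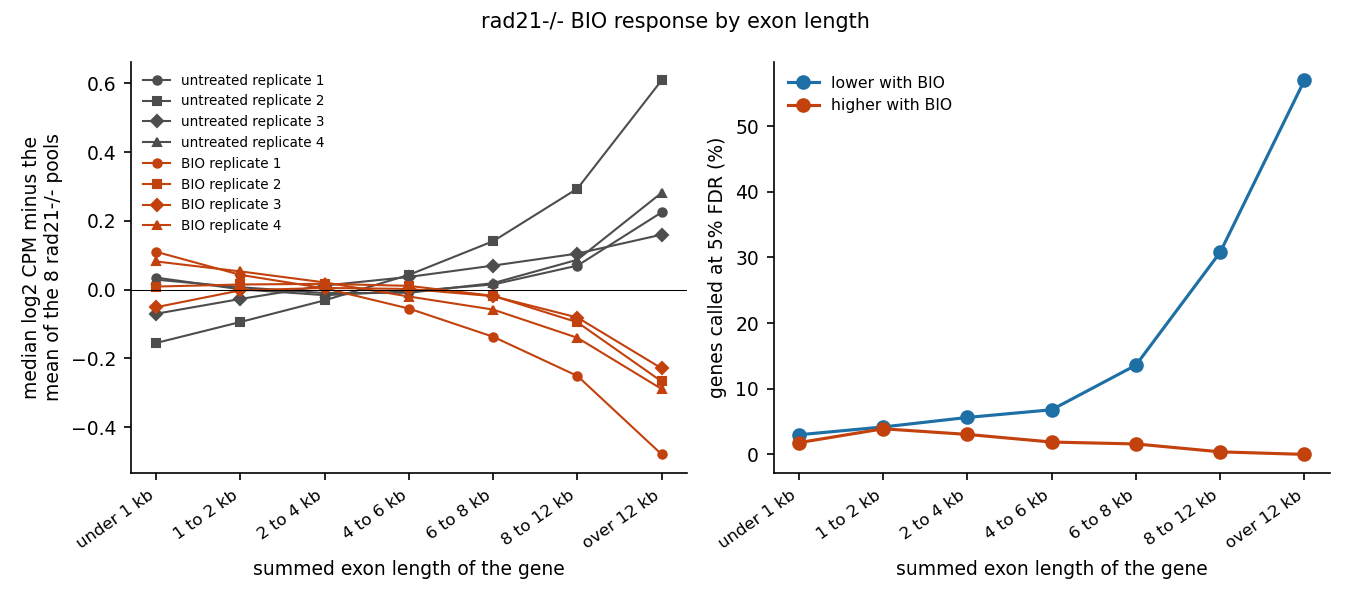
Left, the median log2 CPM of genes in 7 classes of summed exon length, relative to the mean of the 8 *rad21-/-* pools, with a line per pool. Right, the share of genes in each class called higher or lower at 5% FDR; in the class over 12 kb, untreated pools lie at 0.16 to 0.61, treated pools at −0.48 to −0.23, and 57% of genes are called lower.

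The response varied with the length of the transcript. Among the 14116 genes with an average log2 CPM over 1, the median log2 fold change was 0.10 for genes with under 1 kb of exons, 0.04 at 2 to 4 kb, −0.11 at 6 to 8 kb, −0.26 at 8 to 12 kb and −0.68 over 12 kb. Of the 114 genes over 12 kb, 65 fell and none rose, where 1006 of the 14116 fell and 393 rose. The 630 genes over 8 kb held 22.3% of the 1006 decreases at this level of expression. The trend was in every pool: relative to the mean of the 8, genes over 12 kb lay at 0.23, 0.61, 0.16 and 0.28 in the untreated pools and at −0.48, −0.27, −0.23 and −0.29 in the treated pools. Untreated replicate 2 and BIO replicate 1 were the extremes, and they were also pools whose omission cost most calls. Median changes over 12 kb were −0.24 in wild type and −0.46 in *rad21+/-*. With the trend taken out by an offset in the fit, chosen after seeing the data, the 630 genes over 8 kb held 71 decreases and 53 increases, where they had 224 and 2. Of all 21385 genes tested, 904 fell and 477 rose in that fit. It lost 28 of the 130 calls followed gene by gene, and the same offset with a term for replicate number lost 17. Among the 28 were genes with under 4 kb of exons near the threshold, *fgf3*, *hoxb1b*, *sox2*, *tbx6*, *actc1a* and *si:ch211-249o11.5*, with adjusted p from 0.0503 to 0.0735. Each of these was called when the term for replicate number was added to the offset. The samples' RNA integrity was not analysed here.

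Among the long genes that fell were *ahnak* (−1.37) and *vps13d* (−1.15), chosen after their values were seen. Of 26 cohesin subunits and regulators 5 fell and none rose (unadjusted p under 0.05 for 5 lower and 0 higher, DESeq2 5 and 0). For this list and the next, 5.06% of all genes fell and 2.1% rose. *nipblb*, encoding the cohesin loader, was at 135, 137, 107 and 128 CPM untreated and 92.1, 93.1, 98.3 and 99.8 CPM with BIO, without overlap (log2 fold change −0.41, SE 0.11, adjusted p = 0.024). *nipbla* (−0.36), *stag2b* (−0.28), *stag2a* (−0.25) and the separase gene *espl1* (−0.38) also fell, and *smc3* (−0.09) and *ctcf* (0.04) did not pass the test. None of the 5 was called with the length trend taken out, and without untreated replicate 2 or BIO replicate 1 only 1 was. With a term for replicate number added to the offset, *stag2a* was called and the others were not. Of 50 notochord and floor plate genes 7 fell and 2 rose (median −0.08). The 7 included laminin and collagen genes of the notochord sheath, *lama1* (−0.56), *col5a1* (−0.53) and *col11a1a* (−0.52), and *cavin2b* (−0.68), which builds caveolae. Without untreated replicate 2 there were 3, and with the length trend taken out 4. Those 4 did not include *lama1* (−0.23, adjusted p = 0.285), *col5a1* (−0.19, adjusted p = 0.288) or *col11a1a* (−0.36, adjusted p = 0.057). Of these, *col11a1a* was called with the term for replicate number added to the offset. The calls of *lama1* and *col5a1* were also lost in 5 and 4 of 8 single-pool omissions. The ligand gene *shha* (0.31, adjusted p = 0.11) and the notochord gene *noto* (0.42, adjusted p = 0.091) did not pass the test. The epidermal list held 22 decreases with the trend taken out, and its median exon length of 1878 bases was below that of all genes tested, 2340 bases.

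**Figure D5:**
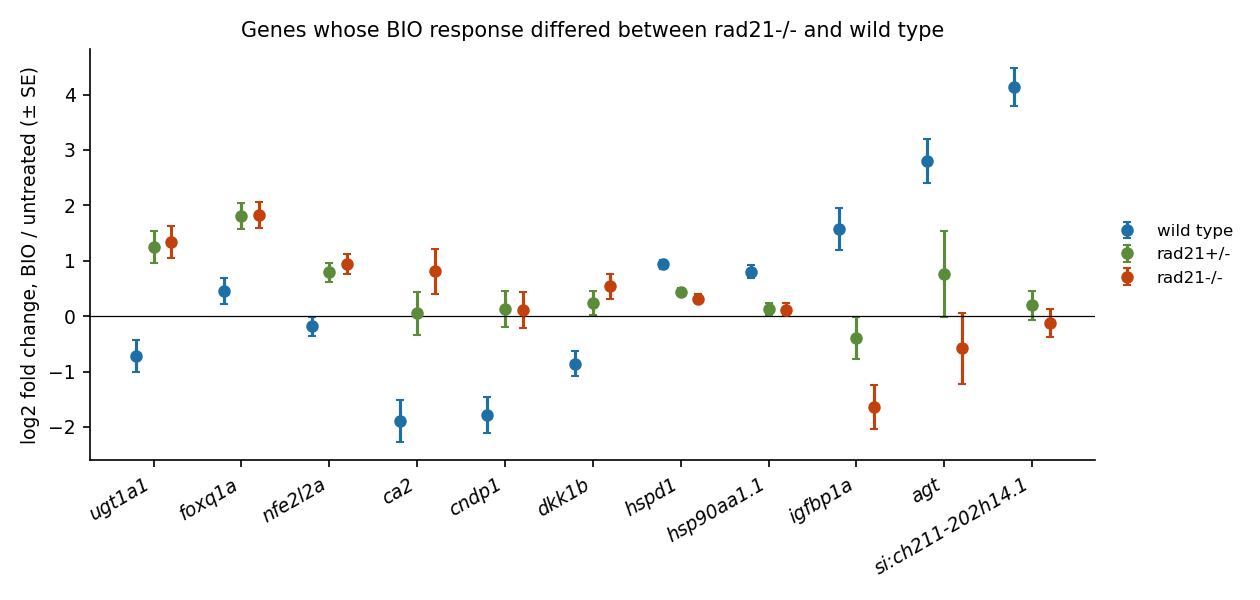
Log2 fold changes with BIO (± standard error from the fit to 4 pools per group) of 11 genes whose response differed between *rad21-/-* and wild type, with *rad21+/-* plotted between them. In each gene the wild-type point lies apart from that of *rad21-/-*, as for *si:ch211-202h14.1* at 4.14 against −0.12.

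Where the mutant response differed from that of wild type was tested by the interaction of genotype and treatment. It passed 5% FDR for 187 genes (0.874%), of which 84 (0.393%) were more positive in *rad21-/-* and 103 (0.482%) more negative. Of the 187, BIO changed 156 in wild type only, 18 in *rad21-/-* only and 13 in both, 8 of them in opposite directions. Wild type had 3709 calls in all (17.3%), against 1532. Of the *rad21-/-* calls, 52.8% were also called in wild type in the same direction, which was 21.8% of the wild-type calls, and 8 were called in opposite directions. Across all genes tested the log2 fold changes of both genotypes had a Pearson r of 0.288, given as a description since genes are not independent. Without untreated replicate 2 the interaction count was 107, without BIO replicate 2 123 and without BIO replicate 1 124. Only *rad21-/-* pools were left out, so how far interactions depend on single wild-type pools was not tested. In a fit to only the 16 libraries compared it was 62.

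For some xenobiotic and stress genes the response in the mutant lay above that in wild type. *ugt1a1* rose in *rad21-/-* and had −0.72 (adjusted p = 0.090) in wild type, an interaction of 2.06 (SE 0.41, adjusted p = 0.010). *foxq1a* had 0.45 in wild type (interaction 1.38, adjusted p = 0.031) and *nfe2l2a* −0.18 (interaction 1.12, adjusted p = 0.018). The *foxq1a* interaction was lost in 6 of 8 single-pool omissions and that of *nfe2l2a* in 1. By contrast, *cyp1a* and *cyp1b1* had 3.56 and 3.90 in wild type, with interactions of 0.03 (SE 0.87) and −0.02 (SE 0.79). *dkk1b* fell in wild type (−0.86, adjusted p = 0.0071) and its interaction was 1.40 (adjusted p = 0.026, lost in 3 of 8 omissions). The chaperone gene *hspd1* rose more in wild type (0.93), an interaction of −0.62 (adjusted p = 0.0030) not lost in any omission of a *rad21-/-* pool. With only the libraries compared, the interactions of *ugt1a1*, *foxq1a*, *nfe2l2a*, *dkk1b* and *hspd1* were all lost.

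The most positive interactions belonged to *ca2*, *si:ch211-220f21.2*, *si:ch211-249o11.5*, *ugt1a1* and *cndp1*. *ca2*, a carbonic anhydrase gene, was at 1.91, 2.51, 2.94 and 1.98 CPM untreated and 4.24, 3.68, 4.34 and 4.15 CPM with BIO in *rad21-/-* (log2 fold change 0.81, adjusted p = 0.25) and went from 61.3 ± 38.6 to 16.6 ± 1.19 CPM in wild type (mean ± SD, n = 4), an interaction of 2.69 (SE 0.55, adjusted p = 0.013). The dipeptidase gene *cndp1* did not pass the test in the mutant, at 7.66, 5.63, 7.38 and 7.53 CPM untreated and 7.72, 6.9, 7.96 and 7.97 CPM with BIO, and fell by 1.78 in wild type. Its interaction of 1.90 (adjusted p = 0.039) was lost in each of the 8 omissions. *si:ch211-220f21.2* was at 7.11, 8.72, 8.83 and 10.1 CPM untreated and 9.71, 9.47, 8.8 and 10.2 CPM with BIO in *rad21-/-*, against 0.297 ± 0.192 CPM in untreated and 0.0791 ± 0.0685 CPM in treated wild type (interaction 2.22). Its level did not pass the test in the mutant (0.13, adjusted p = 0.77), so the interaction rests on few fragments in wild type, and it was not called with only the libraries compared. In *rad21+/-*, *si:ch211-220f21.2* stood at 9.29 ± 0.76 CPM untreated and 8.84 ± 0.96 CPM with BIO. The interaction of *si:ch211-249o11.5* was 2.17.

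The most negative interaction was that of *si:ch211-202h14.1*, at 4.23, 3.96, 2.76 and 2.48 CPM untreated and 3.89, 2.99, 2.49 and 2.97 CPM with BIO, where wild type went from 0.102 ± 0.0732 to 1.83 ± 0.849 CPM (interaction −4.26, SE 0.43, adjusted p = 7.0e-07). The mutant was thus high in all 8 pools, before and after treatment. So was *rad21+/-*, at 1.95 ± 0.12 CPM untreated and 2.23 ± 0.33 CPM with BIO. *si:dkey-15h8.17* had the same form, with 4.45, 4.64, 4.27 and 4.78 CPM untreated and 3.18, 4.47, 4.17 and 4.81 CPM with BIO (interaction −2.86). In *rad21+/-* this gene stood at 4.50 ± 0.23 CPM untreated and 4.81 ± 0.19 CPM with BIO. *agt*, the angiotensinogen gene, stayed under 0.21 CPM in the mutant and rose by 2.80 in wild type (interaction −3.38, lost in 5 of 8 omissions). *igfbp1a*, a stress-induced IGF-binding protein gene, fell in the mutant, at 2.86, 6.53, 1.35 and 1.86 CPM untreated and 0.856, 0.684, 1.67 and 0.852 CPM with BIO (log2 fold change −1.64, SE 0.40, adjusted p = 0.010), with overlap through BIO replicate 3, and rose in wild type by 1.57 (adjusted p = 0.0035). Its interaction was −3.21 (adjusted p = 0.0026). *FP565451.1* was 0.01 in the mutant and 2.71 in wild type.

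The *rad21+/-* embryos share the line with *rad21-/-*, whereas in the comparison with wild type the mutation and the line cannot be told apart. For a difference in response between *rad21-/-* and *rad21+/-*, 439 of 21385 genes had an unadjusted p under 0.05. That is below the 5% to be expected with no difference, as can arise when a test is conservative. The small number of calls therefore does not show that the responses were equal. Only 1 gene (0.00468%) passed 5% FDR, and DESeq2 found none. That gene, *lhx6b*, a LIM homeobox gene, lies outside the expression minimum of the naming rule and was chosen after its values were seen. Its raw counts were 1, 3, 3 and 3 in untreated and 8, 16, 21 and 8 in treated *rad21-/-* pools, and 8, 21, 15 and 10 and then 4, 14, 6 and 3 in *rad21+/-*. The interaction was 3.08 (SE 0.49, adjusted p = 0.011), and it was lost without untreated replicate 1 or BIO replicate 3. In *rad21+/-* BIO changed 775 genes (3.62%). Of the *rad21-/-* calls, 31.9% were called there in the same direction, which was 63% of the *rad21+/-* calls, and none in opposite directions. Of genes whose response differed between *rad21-/-* and wild type, *foxq1a* rose by 1.80, *ugt1a1* by 1.25 and *nfe2l2a* by 0.79 in *rad21+/-*, against 1.83, 1.34 and 0.94 in *rad21-/-*. Others did not pass the test in *rad21+/-*: *cndp1* (0.13 against 0.12 in *rad21-/-*), *ca2* (0.05 against 0.81), *si:ch211-249o11.5* (−0.09 against 1.23) and *igfbp1a* (−0.40 against −1.64). The epidermal list had 3 of 50 lower in *rad21+/-* with a median of −0.32, and 41 lower in wild type with a median of −0.79, where 2.31% and 9.76% of all genes fell. The differences between these counts were not tested.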

How the data were processed

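Poly(A) RNA of pooled tailbuds was sequenced with a stranded kit. The authors deposited raw counts of fragments per gene. They trimmed reads with Cutadapt, used HISAT2 for alignment to GRCz11, and counted by strand with featureCounts 1.5.3. Fragments that mapped to several places or overlapped several genes were not counted, which lowers near-identical copies. Names were found for 29004 of 32057 genes, 10120 of them by matching a human symbol to a zebrafish symbol on the same chromosome. Of 865 genes where that match could be checked, 96.2% had the same name.

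Groups came from the labels. Tests used edgeR 4.0.16 (R 4.3.3) on TMM-normalized counts after filterByExpr, with a robust quasi-likelihood fit of 8 group means to all 32 libraries. P-values were adjusted by Benjamini-Hochberg and called at 5% FDR. Interactions came from the same fit. Totals were 42408731 to 79725283 fragments in the *rad21-/-* pools. The mean chi-square per gene between replicates was 20.1 to 77.7, where counting noise gives 1. Abundant genes weigh most in that mean. For these, counting error was small beside the spread between pools, and lower levels were not examined apart. Lists were described by counts and medians without a set test. The script was tested on simulated data.

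Genes named were *rad21a*; among called genes averaging 1 log2 CPM or more whose pools did not overlap, the 10 largest changes and the 3 smallest p each way; the 5 highest and 5 lowest of each interaction (same expression minimum); and in described lists, key members and up to 4 called members each way. Members and lists were chosen with earlier results of these data known. Alternatives were DESeq2 1.42.0, RLE size factors, no low-count filter, a replicate block, only the libraries compared, each *rad21-/-* pool left out and a 2-fold minimum. Added after seeing the data was an offset removing the trend with exon length, alone and with the block. No wild-type or *rad21+/-* pool was left out. Promoter sequences and *stag2b-/-* responses were not analysed here. The result of 1 gene and the counts of its list are not reported here.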

Additional observations from a re-analysis of the deposited data

Results flagged for a closer look

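Of 70 groups of 4 *rad21-/-* pools examined, 8 had a pool far from the other 3. Chance gives about 1 in 20 for independent groups. These are not independent, since the genes share pools and most were chosen by their values. The count therefore cannot be set against chance. Untreated replicate 2 was the distant pool, above the others, for 5 genes of chromosome 1: ENSDARG00000117707 (9.84 CPM), ENSDARG00000117636 (15.6 CPM), ENSDARG00000117216 (40.9 CPM), ENSDARG00000117450 (13.4 CPM) and ENSDARG00000117555 (37.4 CPM). All 5 are among the largest decreases, and only that of ENSDARG00000117707 lost its call without this pool. The others were *rad21a* in BIO replicate 1 (67.9 CPM, above), *nppal* in BIO replicate 3 (2.86 CPM, above) and *cndp1* in untreated replicate 2 (5.63 CPM, below).

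The response to BIO differed between *rad21-/-* and wild type, by the interaction test, for the following named genes. More positive in *rad21-/-* on the log2 scale were *ca2* (2.69), *si:ch211-220f21.2* (2.22), *si:ch211-249o11.5* (2.17), *ugt1a1* (2.06), *cndp1* (1.90), *dkk1b* (1.40), *foxq1a* (1.38), *ascl1a* (1.13) and *nfe2l2a* (1.12). More negative were *si:ch211-202h14.1* (−4.26), *agt* (−3.38), *igfbp1a* (−3.21), *si:dkey-15h8.17* (−2.86), *FP565451.1* (−2.71), the ciliary dynein gene *dnah3* (−2.68), the heat shock genes *hsp90aa1.2* (−1.73) and *hsp90aa1.1* (−0.69), and *hspd1* (−0.62). *hsp90aa1.1* and *hsp90aa1.2* are near-identical neighbours, so fragments may have been lost from either. With 1 *rad21-/-* pool left out, the difference was lost in all 8 omissions for *cndp1* and *hsp90aa1.2* and in 6 for *foxq1a*, *ascl1a* and *dnah3*. It was lost in 5 for *agt* and *hsp90aa1.1*, in 3 for *dkk1b*, in 1 for *nfe2l2a* and *si:ch211-249o11.5*, and in none for the other 8. Wild-type pools were not left out. That of *dnah3* was also not called with the length offset. With only the libraries compared, the difference was still called for *ca2*, *si:ch211-202h14.1*, *FP565451.1* and *hsp90aa1.2*, and lost for the other genes of this list. Between *rad21-/-* and *rad21+/-* the response of *lhx6b* differed by 3.08.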

How the results depend on the processing

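No named call reversed its direction. Among 105 named genes without a call, 3 changed sign by their standard error or more without untreated replicate 1. The number was 2 without untreated replicate 3, 2 without BIO replicate 4, 2 with the length offset and 2 with the offset and replicate block. Medians of some lists near 0 also changed sign with 1 pool left out, as for the AhR battery (−0.109 to 0.037). The 1532 calls of the BIO response were 2183 with DESeq2 (810 higher), 1520 with RLE size factors, 1256 without the low-count filter, 1903 with only the libraries compared and 1381 with the exon length offset, of which 1155 were shared. At least 2-fold changes numbered 230. With 1 pool left out the count ran from 674 to 1666. The 187 interactions with wild type were 405 with DESeq2, 62 with only the libraries compared and 107 to 187 with 1 *rad21-/-* pool left out. The 1 interaction with *rad21+/-* was 0 with DESeq2 and with only the libraries compared, and 0 to 1 with 1 *rad21-/-* pool left out. Scaling moved the median of all genes by less than 0.02. The cause was not tested in these cases.

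Of 130 named calls of the response, none was lost with DESeq2 (129 could be compared), 4 with RLE size factors, 22 without the filter and 23 of 128 with only the libraries compared. With the length offset 28 were lost, with the offset and the replicate block 17, and with 1 pool left out 18 to 73. Of 18 named interactions with wild type, 14 were lost with only the libraries compared.

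Replicate numbers were not stated to mark shared batches. Deviations of same-numbered untreated and treated pools correlated at 0.33, 0.272, −0.02 and 0.098, with up to 0.225 between different numbers, and 5 of the 8 pools correlated best with their own number. Replicate 4 of both groups also stood apart together on the second principal component (17.4 and 24.1). The main fit did not treat the pools as paired, because no source states a pairing. These values do not settle whether the pools were paired. With a replicate block the response had 2412 calls (954 higher, 1458 lower) and the interaction with wild type 307. With the block and the length offset together these were 2231 (1004 higher, 1227 lower) and 336. With the block alone, none of the 130 named calls of the response was lost, 6 of 105 other named genes passed the test, and 2 of the 18 named interactions with wild type (*dnah3* and *hsp90aa1.2*) were lost.

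Depth limits genes below about 1 CPM, such as *lhx6b* and *si:dkey-23k10.3*, whose values rest on few fragments. For abundant genes the spread between pools is the limit.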
